A study of Rattus norvegicus with 9 samples.

Results

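The 46 genes described here encode the kinases, phosphatases, receptors and transcription factors through which growth and stress signals reach the heart muscle cell: the mitogen-activated protein kinase (MAPK) cascades, the insulin and insulin-like growth factor pathway with phosphoinositide 3-kinase (PI3K), Akt and mTOR, and the calcium and transcription factor arm of cardiac growth. They were taken by gene symbol from a table of 19294 genes with values, in which each of the 46 had 1 row. The samples were left ventricles of 3 groups of 3: Wistar Kyoto rats (WKY, a normotensive strain), the spontaneously hypertensive rat (SHR, in which high blood pressure is inherited), and SHR that received oxymatrine, an alkaloid of Sophora roots (SHR_OMT in the labels). All animals of the last 2 groups were of the hypertensive strain, and no oxymatrine-treated WKY group was analysed here. The sources used here do not give age, sex, dose, route, duration, vehicle or time of collection. They also do not say whether replicates were separate animals or pools, so every p-value reflects only how far these samples spread, and that spread may be technical. Levels are FPKM, in which fragments are scaled to gene length and sequencing depth, so they can be set side by side between genes. Differences are of log2(FPKM + 1), and for low genes this makes a change look smaller than it is.

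In a MAPK cascade a kinase at the top (MAP3K) phosphorylates a kinase in the middle (MAP2K), which phosphorylates the MAP kinase itself; ERK answers mainly to growth factors, and JNK and p38 mainly to stress. Insulin and IGF-1 act through receptor substrates (Irs1, Irs2) on PI3K, whose lipid product recruits Akt; Akt holds back GSK3 and the FoxO factors and relieves the TSC brake on mTOR. CaMKII phosphorylates class IIa histone deacetylases, which then leave the nucleus and free MEF2 factors. These routes act largely through phosphorylation, which RNA levels do not report.

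Heart muscle RNA was described with 8 muscle markers (Myh6, Myh7, Myl2, Myl3, Tnnt2, Tnni3, Actc1 and Ryr2). Several of them, such as Myh6 and Tnnt2, are expressed in atrial muscle too, so they cannot check ventricular origin. The summed level of the 8 was 41900 to 42500 FPKM in WKY, 43900 to 45900 in SHR and 39600 to 44300 in treated SHR. Of these 8 markers 3 (37.5%) were higher and 0 lower in SHR than in WKY, where 10.8% and 23.1% of all tested genes were. The counts were the same with median-of-ratios scaling, and 3 higher and 1 lower with quantile normalization. Of 4 atrial markers 1 was lower in SHR, Myl7, which had 9.33 and 8.06 FPKM in WKY replicates 1 and 2, and 0.71 to 2.85 in the other 7 libraries; the summed atrial level was 1260 to 2630 FPKM in WKY, 975 to 4460 in SHR and 976 to 1930 in treated SHR. Summed FPKM per library lay between 587526 and 606633. Endothelial markers were lower in SHR than in WKY in 8 of 9 cases (6 with median-of-ratios scaling, 7 with quantile normalization), with a summed level of 761 to 893 FPKM in WKY, 570 to 629 in SHR and 626 to 648 in treated SHR, and none of the 9 was at 0. Of 6 smooth muscle and pericyte markers 0 passed the limma test, at a summed level of 330 to 465, 334 to 363 and 342 to 397 FPKM. Yet 0 of these 6 had a difference above 0 in SHR against WKY, with a median log2 difference of −0.52. Of 7 fibroblast markers 1 was lower (1230 to 1470, 1040 to 1220 and 959 to 1330 FPKM). Of 6 macrophage markers 0 passed the limma test either, at 74.9 to 90.1, 96.3 to 116 and 58.8 to 122 FPKM. All 6 macrophage differences were above 0 in SHR against WKY, with a median of 0.15. Of the markers tested for lymphocytes, red blood cells and Schwann cells, 1 of 3, 0 of 3 and 1 of 4 were lower. In bulk tissue fewer cells of a type and less RNA per cell cannot be told apart, and the part of these cell type differences in the results was not tested.

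SHR ventricles differed from WKY ventricles in 16 of the 45 members tested, 11 higher and 5 lower, in every role group except the MAP kinase phosphatases and the mTOR genes. The largest were in the stress kinases: Map3k5, the apoptosis signal-regulating kinase ASK1 at the top of the JNK and p38 cascades, was 2.73-fold higher in SHR, and Map2k6, which phosphorylates p38, stood at 0.477 of its WKY level. Akt1, Akt2, Irs2, Igf1, Foxo3, Camk2d and Gata4 were also higher, and Mapk3 (ERK1), Mef2a, Hdac4 and Pik3cb lower. Calls were made by limma with Benjamini-Hochberg adjustment over all 12451 genes with a mean of at least 1 FPKM, at an adjusted p of 0.05; Dusp4, at 0.894 FPKM on average, fell under this level and was not tested. The 16 called members are 35.6% of those tested, close to the 33.9% of all tested genes. By direction, 24.4% of the members were called higher, against 10.8% of all genes, and 11.1% lower, against 23.1%. The median difference of the members was 0.05 and that of all tested genes −0.08. Median-of-ratios scaling gave 19 members higher and 2 lower, with 17% of all genes higher and 13.7% lower, and quantile normalization 17 and 3, with 15.1% and 14.6% of all genes. Without WKY replicate 1 the counts were 6 higher and 2 lower, with 7.8% and 15.3% of all genes, and none of the 45 tested members was called in the opposite direction in any of the 17 alternatives.

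**Figure D1:**
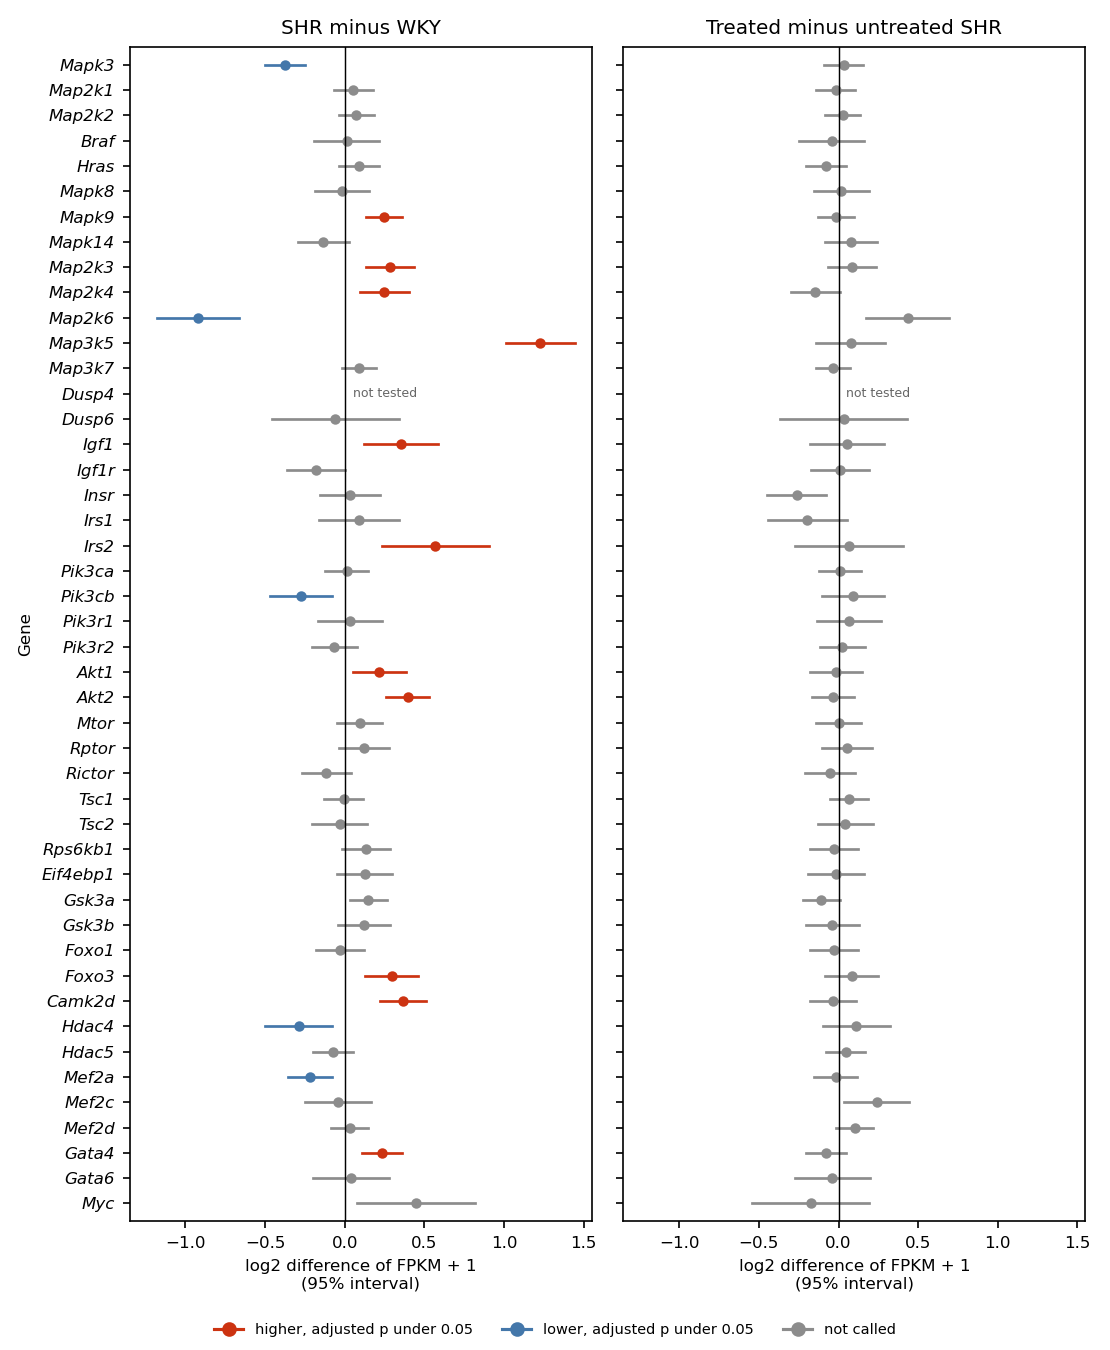
Difference of each of the 46 genes on the log2(FPKM + 1) scale, with its 95% interval from limma, not adjusted for the number of genes; left, SHR minus WKY, right, treated minus untreated SHR; red and blue mark genes called higher and lower, grey those not called. On the left 11 genes are red and 5 blue, with Map3k5 at 1.23 and Map2k6 at −0.92 outermost; on the right none is called, and Dusp4 was not tested.

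Of the 8 members of the stress-activated cascades, 4 (50%) were called higher and 1 (12.5%) lower, where 10.8% and 23.1% of all tested genes were. The kinase at the top moved most. Map3k5 (NCBI Gene ID 365057) had 3.41, 3.25 and 3.93 FPKM in WKY, 9.44, 10.98 and 8.50 in SHR, and 10.73, 10.29 and 9.54 in treated SHR. Every SHR library, treated or not, lay above every WKY library. The group means were 3.53 ± 0.355, 9.64 ± 1.25 and 10.2 ± 0.602 FPKM (SD, n = 3), with a log2 difference of 1.23 for SHR against WKY (SE 0.096, adjusted p = 4.6e-05). Small and long noncoding RNA genes overlap it in the RefSeq table, and their reads cannot be told apart without strand. Map2k6 (MKK6, Gene ID 114495) had 9.01, 9.93 and 8.16 FPKM in WKY, 3.82, 5.09 and 4.03 in SHR, and 7.11, 5.64 and 5.76 in treated SHR. The 3 groups did not overlap, with WKY highest, untreated SHR lowest and treated SHR between. Its log2 difference for SHR against WKY was −0.92 (SE 0.115, adjusted p = 0.000449).

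Map2k3 (MKK3), which also activates p38, went the opposite way to Map2k6. It had 39.2, 41.9 and 43.2 FPKM in WKY, 52.5, 51.8 and 47.5 in SHR and 58.2, 53.1 and 50.1 in treated SHR. All 6 SHR libraries exceeded the 3 WKY libraries, with a log2 difference of 0.28 for untreated SHR (SE 0.067, adjusted p = 0.0113). As Map2k3 was the more abundant of the pair, the ratio of Map2k6 to Map2k3 was 0.219 ± 0.0259 in WKY, 0.0853 ± 0.0127 in SHR and 0.114 ± 0.00805 in treated SHR (SD, n = 3). This ratio, like the other pair values below, was chosen after the single values were seen and is given without a test. The 3 groups did not overlap in it: 0.189 to 0.237, 0.0728 to 0.0983 and 0.106 to 0.122.

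The promoters of these 3 stress kinases are shown because Map3k5 and Map2k6 had the largest differences of the 46 genes and Map2k3 moved opposite to Map2k6 at the same step. Each runs from 250 bases before the annotated transcription start to 50 from it on, 5′ to 3′ on the gene's own strand, from RefSeq on build GRCr8, the reference strain and not SHR or WKY. All 3 lie on the plus strand, Map3k5 at chr1:16505714-16506013, Map2k6 at chr10:95872497-95872796 and Map2k3 at chr10:46107389-46107688. Capitals mark GC boxes (GGGCGG) and CCAAT boxes (CCAAT), on either strand.
Map3k5: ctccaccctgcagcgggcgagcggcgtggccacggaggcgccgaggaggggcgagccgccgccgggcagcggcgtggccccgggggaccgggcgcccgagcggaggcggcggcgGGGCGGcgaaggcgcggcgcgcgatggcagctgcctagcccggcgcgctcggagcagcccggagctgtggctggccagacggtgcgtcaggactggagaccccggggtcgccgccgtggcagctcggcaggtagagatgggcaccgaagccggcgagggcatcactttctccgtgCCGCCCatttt
Map2k6: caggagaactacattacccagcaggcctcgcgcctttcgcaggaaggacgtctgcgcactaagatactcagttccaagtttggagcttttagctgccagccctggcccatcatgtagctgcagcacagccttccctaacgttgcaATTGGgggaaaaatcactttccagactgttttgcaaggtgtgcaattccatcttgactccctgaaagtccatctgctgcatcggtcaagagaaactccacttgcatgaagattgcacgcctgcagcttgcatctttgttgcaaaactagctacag
Map2k3: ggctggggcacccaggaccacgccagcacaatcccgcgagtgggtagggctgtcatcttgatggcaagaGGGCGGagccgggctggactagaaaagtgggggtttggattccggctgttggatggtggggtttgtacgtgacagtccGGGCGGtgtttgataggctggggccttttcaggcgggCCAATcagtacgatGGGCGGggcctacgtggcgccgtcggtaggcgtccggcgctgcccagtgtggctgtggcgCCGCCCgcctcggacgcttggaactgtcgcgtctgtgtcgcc
The Map3k5 window is 77.7% G and C with 45 CpG dinucleotides, that of Map2k3 66% with 27, and that of Map2k6 50.3% with 8. The windows of Map3k5 and Map2k3 hold 2 and 4 GC boxes, and that of Map2k6 holds a CCAAT box read on the other strand and no GC box. Map2k3 has a CCAAT box as well.

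Further down the JNK arm, Map2k4 (MKK4, an activator of JNK) had 15.5, 18.7 and 16.3 FPKM in WKY, 19.95, 20.28 and 20.05 in SHR and 17.3, 18.1 and 18.8 in treated SHR. Untreated SHR lay above both other groups without overlap, and treated SHR overlapped WKY. The difference from WKY was 0.25 in untreated SHR (SE 0.069, adjusted p = 0.0216), and the call was lost without WKY replicate 1 (adjusted p = 0.078) and in 3 other alternatives. Mapk9 (JNK2) had 20.3, 20.3 and 19.2 FPKM in WKY, 23.64, 23.76 and 23.99 in SHR and 23.75, 24.36 and 22.41 in treated SHR. Its SHR libraries, treated and untreated, all stood above WKY, by 0.25 for untreated SHR (SE 0.050, adjusted p = 0.00535). Mapk8 (JNK1) had group means of 7.85, 7.77 and 7.85 FPKM and was not called (adjusted p = 0.883), so Mapk9 made up 71.7% ± 0.493 of the summed Mapk8 and Mapk9 level in WKY and 75.4% ± 1.91 in SHR. Mapk14 (p38 alpha, adjusted p = 0.178) and Map3k7 (TAK1, a MAP3K of cytokine signals, adjusted p = 0.174) did not pass either, though Map3k7 did with both other scalings.

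**Figure D2:**
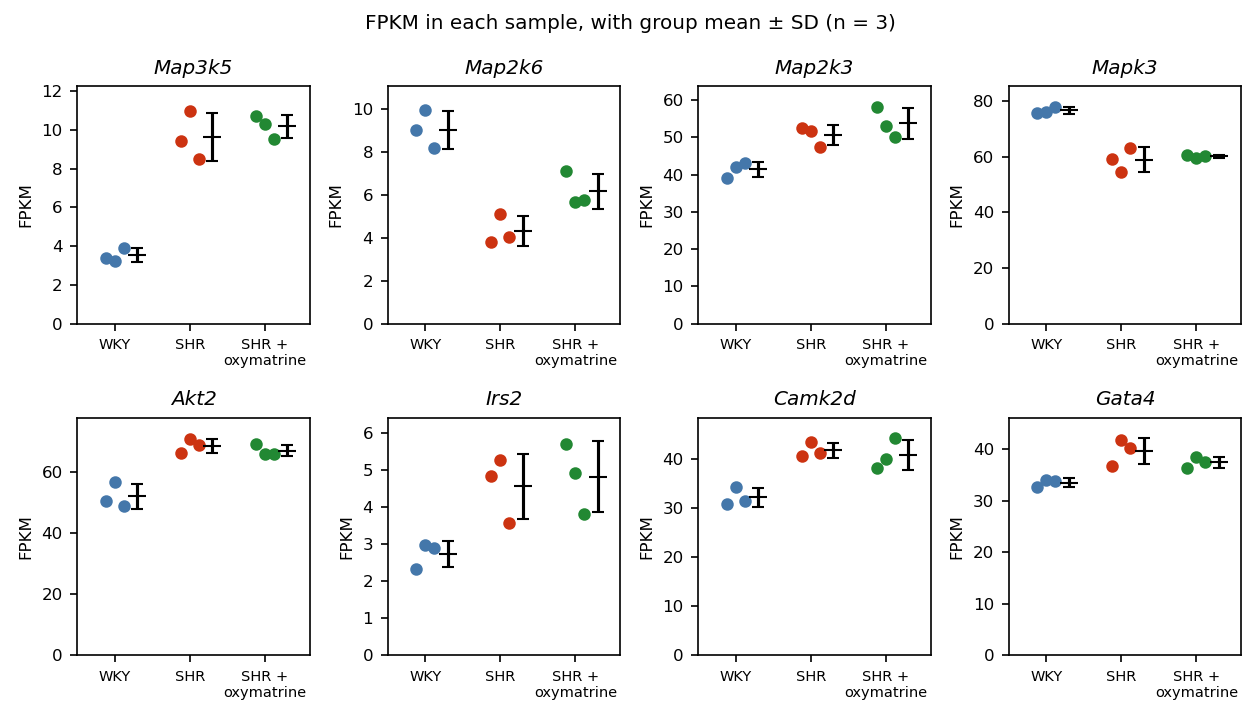
FPKM of 8 called genes in every sample (points) by group, with the group mean and SD (bars, n = 3); each vertical axis starts at 0. Map3k5 lies between 3.25 and 3.93 FPKM in WKY and between 8.50 and 10.98 in both SHR groups, and Map2k6 is the only gene of the 8 whose 3 groups are fully apart.

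Of the 5 members of the ERK cascade, the MAP kinase gene Mapk3 was the one called, as lower (20%, where 23.1% of all tested genes were lower). Mapk3 (ERK1, Gene ID 50689) had 75.8, 76.2 and 77.9 FPKM in WKY, 59.1, 54.5 and 63.3 in SHR and 60.5, 59.6 and 60.4 in treated SHR. Both SHR groups lay below every WKY library. The log2 difference for untreated SHR was −0.38 (SE 0.055, adjusted p = 0.00103), and −0.28 with median-of-ratios scaling, its smallest in size over 17 alternatives, in all of which it was called. The kinases above it were not called: Braf, a MAP3K, had group means of 3.27, 3.32 and 3.2 FPKM (adjusted p = 0.925), and Map2k1 (MEK1) 35.5, 36.8 and 36.4 (0.468). Map2k2 (MEK2) and the small GTPase gene Hras had adjusted p-values of 0.274 and 0.242 and were called higher only with median-of-ratios scaling (0.0415 and 0.0302). Of the phosphatases that switch MAP kinases off, Dusp6, which acts on ERK, spread widely within groups, at 12.5 to 15.2 FPKM in WKY, 10.7 to 15.7 in SHR and 9.85 to 16.3 in treated SHR (adjusted p = 0.824), and Dusp4 stayed at 0.39 to 1.34 FPKM in all 9 libraries.

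At the head of the insulin and IGF route, the ligand and a receptor substrate were higher in SHR, while no receptor was called. Igf1, insulin-like growth factor 1 (Gene ID 24482), had 13.86, 16.46 and 15.26 FPKM in WKY, 22.67, 16.50 and 20.31 in SHR and 20.03, 21.04 and 20.26 in treated SHR. Untreated SHR replicate 2 lay just above the highest WKY library, and the others of both SHR groups well above. The log2 difference for untreated SHR was 0.36 (SE 0.104, adjusted p = 0.0264), lost in 6 of 17 alternatives, with an adjusted p of 0.0934 without WKY replicate 1. Irs2, a substrate of both receptors, had 2.32, 2.97 and 2.89 FPKM in WKY, 4.84, 5.27 and 3.58 in SHR and 5.72, 4.94 and 3.83 in treated SHR. The lowest SHR library, replicate 3 in either SHR group, still stood above WKY. Its difference was 0.57 (SE 0.151, adjusted p = 0.0175, and 0.0654 without WKY replicate 1). Irs1 was lower in level, at 1.26 to 1.95 FPKM, and not called (adjusted p = 0.564). The share of Irs2 in the summed Irs1 and Irs2 level was 64.2% ± 2.33 in WKY, 72.9% ± 1.32 in SHR and 78% ± 3.18 in treated SHR. The receptors Igf1r (2.94, 2.48 and 2.5 FPKM in WKY, SHR and treated SHR) and Insr (7.52, 7.74 and 6.27) had adjusted p-values of 0.121 and 0.778.

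Of the 6 PI3K and Akt genes, both Akt genes were higher (33.3%) and Pik3cb lower (16.7%), where 10.8% and 23.1% of all tested genes were. Akt2 (Gene ID 25233), the form most tied to insulin action, had 50.4, 56.6 and 49.0 FPKM in WKY, 66.1, 70.7 and 69.0 in SHR and 69.1, 65.9 and 65.9 in treated SHR. All 6 SHR libraries exceeded the WKY libraries, with a difference of 0.40 for untreated SHR (SE 0.060, adjusted p = 0.00117) that was called in all 17 alternatives. Akt1, the most abundant of the 46 genes, had 99.7, 113 and 116 FPKM in WKY, 134, 126 and 123 in SHR and 133, 116 and 131 in treated SHR. Untreated SHR and WKY did not overlap, and treated replicate 2 fell within the WKY range. The difference for untreated SHR was 0.22 (SE 0.073, adjusted p = 0.0447), near the threshold and lost in 10 of 17 alternatives, among them without WKY replicate 1 (0.15). The summed level of Akt1 and Akt2 was 162 ± 10.3 FPKM in WKY and 196 ± 4.15 in SHR.

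Pik3cb, the beta catalytic subunit of PI3K, had 4.86, 4.0 and 4.93 FPKM in WKY, 3.44, 3.47 and 3.96 in SHR and 3.92, 3.99 and 3.83 in treated SHR. Its SHR libraries lay below WKY, with WKY replicate 2 only just above the highest of them. The difference of −0.27 (SE 0.087, adjusted p = 0.0373) was lost in 10 of 16 alternatives, both other scalings among them (up to 0.149). The alpha catalytic subunit Pik3ca had 11.2, 11.3 and 11.4 FPKM by group and the regulatory subunits Pik3r1 19.2, 19.7 and 20.7 and Pik3r2 12.7, 12.1 and 12.3 FPKM. These 3 had adjusted p-values of 0.896, 0.8 and 0.454 for SHR against WKY. The 95% interval of each lay within a 1.5-fold change of FPKM + 1 in either direction.

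None of the 7 mTOR genes was called in SHR against WKY, where 33.9% of all tested genes were. Mtor, the kinase of both complexes, had 7.72, 6.95 and 7.71 FPKM in WKY, 7.93, 8.20 and 7.94 in SHR and 8.20, 7.63 and 8.26 in treated SHR. Untreated SHR lay above WKY without overlap and treated SHR overlapped WKY. The difference for untreated SHR was 0.09 (SE 0.063, adjusted p = 0.274, and 0.0489 with quantile normalization). Rptor, which defines complex 1, had 6.74 ± 0.635, 7.42 ± 0.185 and 7.75 ± 0.0458 FPKM (adjusted p = 0.201), and Rps6kb1, the S6 kinase below it, had 17.3 ± 1.15, 19.1 ± 0.647 and 18.7 ± 1.27 (0.151). Both were called higher with either other scaling, Rptor at 0.0454 with median-of-ratios scaling and 0.0377 with quantile normalization, and Rps6kb1 at 0.0185 and 0.0306. Rictor, which defines complex 2, had 5.5, 5.01 and 4.78 FPKM (0.23), with a difference just above 0 under quantile normalization. The brake genes Tsc1 (6.4, 6.36 and 6.7 FPKM) and Tsc2 (10.1, 9.91 and 10.2) and the translation repressor gene Eif4ebp1 (25.9, 28.3 and 28) had adjusted p-values of 0.931, 0.779 and 0.242.

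Of the Akt targets, Foxo3, a transcription factor of atrophy and stress resistance genes, was higher in SHR. It had 2.84, 3.14 and 3.32 FPKM in WKY, 4.0, 3.99 and 4.09 in SHR and 4.08, 4.55 and 4.35 in treated SHR. The SHR groups both stood above WKY, by 0.30 for untreated SHR (SE 0.074, adjusted p = 0.0142), with the call lost only without WKY replicate 1 among 16 alternatives (0.0554). Foxo1 had 9.09, 8.89 and 8.7 FPKM (adjusted p = 0.768), so the share of Foxo3 in the summed Foxo1 and Foxo3 level was 25.4% ± 0.866 in WKY, 31.2% ± 1.26 in SHR and 33.2% ± 0.966 in treated SHR. Gsk3a, a kinase that restrains glycogen synthesis and growth, had 37.1 ± 1.43, 41.3 ± 2.23 and 38.3 ± 0.34 FPKM and sat at the threshold in SHR against WKY (log2 difference 0.15, adjusted p = 0.0505, called in 5 of 17 alternatives, 0.00716 to 0.159). Gsk3b had 17.6, 19.3 and 18.7 FPKM (0.234, and 0.0423 with median-of-ratios scaling).

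**Figure D3:**
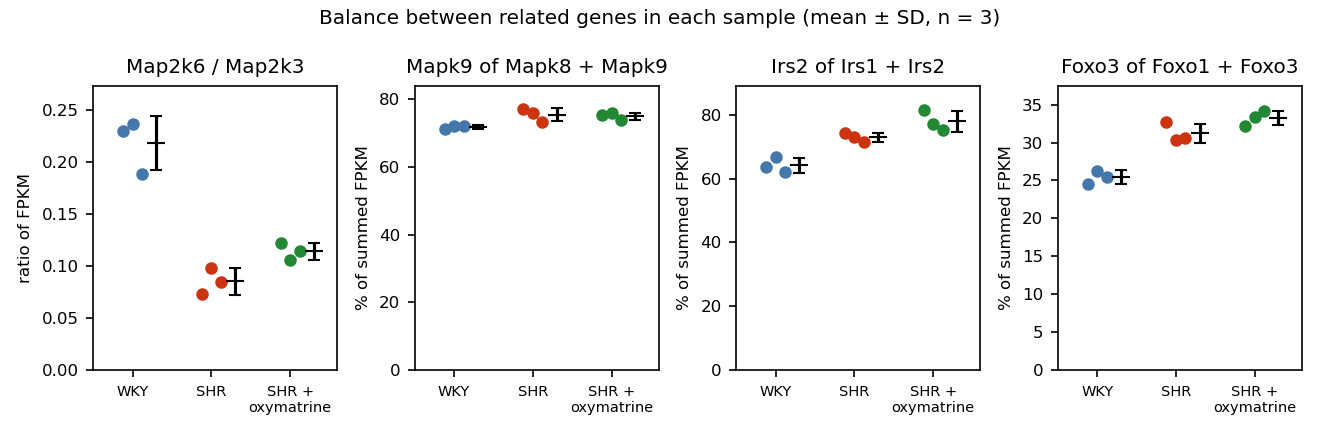
Balance between related genes in every sample (points) with group mean and SD (bars, n = 3): the ratio of Map2k6 to Map2k3 in FPKM, and Mapk9, Irs2 and Foxo3 as a percentage of the summed FPKM of each pair. The Map2k6 to Map2k3 ratio is highest in WKY (0.189 to 0.237), and the shares of Mapk9, Irs2 and Foxo3 are lower in all WKY samples than in any SHR sample.

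Among the 9 genes of the calcium and transcription factor arm, 2 were higher and 2 lower in SHR, 22.2% each. Of all tested genes 10.8% were higher and 23.1% lower, so the share that was lower is near that of all genes. Camk2d, the main CaMKII gene of heart muscle (Gene ID 24246), had 30.7, 34.3 and 31.4 FPKM in WKY, 40.6, 43.4 and 41.2 in SHR and 38.2, 40.0 and 44.1 in treated SHR. All SHR libraries lay above WKY, with a difference of 0.37 for untreated SHR (SE 0.065, adjusted p = 0.00278) that held in all 17 alternatives. Gata4, a zinc finger factor of cardiac growth genes, had 32.6, 34.1 and 33.9 FPKM in WKY, 36.8, 41.9 and 40.3 in SHR and 36.3, 38.6 and 37.5 in treated SHR. WKY was the lowest group throughout, and the difference of 0.23 for untreated SHR (SE 0.056, adjusted p = 0.0114) also held in 17 of 17. Gata6, its relative, was spread from 22.9 to 32.8 FPKM within untreated SHR and was not called (0.811).

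Mef2a, a MADS box factor of muscle genes, had 33.8, 31.3 and 35.1 FPKM in WKY, 29.5, 29.2 and 27.1 in SHR and 28.5, 29.5 and 26.7 in treated SHR. Every SHR library lay below WKY, by a log2 difference of −0.22 for untreated SHR (SE 0.062, adjusted p = 0.024), lost in 4 of 17 alternatives, with 0.155 under median-of-ratios scaling. Mef2c and Mef2d were not called (adjusted p = 0.751 and 0.668), and the summed level of Mef2a, Mef2c and Mef2d was 88.2 ± 3.53, 83.9 ± 3.5 and 89.3 ± 1.39 FPKM in WKY, SHR and treated SHR. Hdac4, a class IIa deacetylase that holds MEF2 back, had 2.44, 1.95 and 2.02 FPKM in WKY, 1.43, 1.66 and 1.60 in SHR and 1.80, 1.69 and 1.81 in treated SHR. The 3 groups did not overlap, with treated SHR between the others. Its difference of −0.29 for untreated SHR (SE 0.094, adjusted p = 0.04) was lost in 12 of 16 alternatives, both other scalings included (up to 0.224). Hdac5, at 30.8, 29.3 and 30.2 FPKM, was not called (0.338).

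Myc, a growth transcription factor, had 2.44, 3.12 and 2.86 FPKM in WKY, 4.38, 5.23 and 3.15 in SHR and 3.51, 4.47 and 2.92 in treated SHR. Untreated SHR replicate 3 lay just above the highest WKY library, and treated SHR overlapped both groups. Its difference for SHR against WKY was 0.45 (SE 0.164, 95% interval 0.08 to 0.82, adjusted p = 0.0609), past the threshold in 4 of 16 alternatives, both other scalings and the replicate block among them.

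In SHR against WKY, 24 of the 45 tested members had groups that did not overlap, where 48.1% of all genes did so; SHR was above WKY in 17 (15.1% of all genes) and below in 7 (33%). In the authors' deposited table, 14 of the 46 members had a q-value under 0.05 for SHR over WKY, 12 higher and 2 lower, against 16.4% of all genes with a q-value. That share is over 18377 genes, more than the 12451 that averaged at least 1 FPKM. It therefore includes low genes and is not a like background for the members, of which only Dusp4 averaged less. All-gene shares by direction were not counted for these q-values. The 2 lower were Map2k6 and Mapk3. Of these 14, 11 were also called here, and Gsk3a, Map3k7 and Myc only in the authors' deposited table. Foxo3, Hdac4, Map2k4, Mef2a and Pik3cb were called here only; in the authors' deposited table Foxo3 had a q of 0.05 at 3 digits and the others 0.173, 0.0611, 0.34 and 0.345.

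Treated and untreated SHR differed in 0 of the 45 members by limma, where 0.241% of all tested genes were called, 0.153% higher and 0.0883% lower. In the authors' deposited table none of the 46 had a q-value under 0.05 for treated over untreated SHR. Of all 18340 genes with a q-value, low genes included, 0.889% did. At an unadjusted p under 0.05 by limma there were 3 members, against 12.1% of all genes. The 3 were Map2k6, Insr and Mef2c. Map2k6 was higher in mean in treated SHR, at 6.17 ± 0.816 against 4.31 ± 0.681 FPKM, without overlap (log2 difference 0.43, 95% interval 0.18 to 0.69, unadjusted p = 0.00404, adjusted p = 0.201, and 0.183 to 0.438 over 17 alternatives). Insr, the insulin receptor, had 6.87, 8.59 and 7.77 FPKM in untreated and 6.0, 6.5 and 6.31 in treated SHR, so that each treated library lay below each untreated library (−0.26, interval −0.45 to −0.08, adjusted p = 0.269, and 0.195 to 0.54 over the alternatives). Mef2c had 13.1, 15.8 and 16.4 FPKM in untreated and 17.6, 17.9 and 18.2 in treated SHR, with all treated libraries above (0.24, interval 0.03 to 0.45, adjusted p = 0.354, and 0.329 to 0.56).

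In this comparison 9 members had groups that did not overlap, 6 with treated SHR higher and 3 lower, where 17.2% of all tested genes did not overlap, 13.2% higher and 3.99% lower. Besides Map2k6 and Mef2c the higher ones were Mef2d, Tsc1, Hdac4 and Rptor, of which Tsc1 and Rptor had differences just below 0 with quantile normalization, and besides Insr the lower ones were Map2k4 and Gsk3a. Mef2d illustrates how small such gaps were: it had 39.4, 43.0 and 38.2 FPKM untreated and 43.15, 43.37 and 43.17 treated, a difference of 0.10 (adjusted p = 0.46). For 44 of the 45 members the 95% interval lay within a 1.5-fold change of FPKM + 1 in either direction, the exception being Map2k6. For low genes such as Irs1 and Myc this bound is wider in FPKM itself. Map3k5 had an interval of −0.14 to 0.29, Akt2 of −0.17 to 0.10 and Mapk3 of −0.09 to 0.15. The median difference of the members was 0.01, against 0.04 for all tested genes. With median-of-ratios scaling the medians were −0.04 and −0.0056, and with quantile normalization −0.04 and −0.0020.

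**Figure D4:**
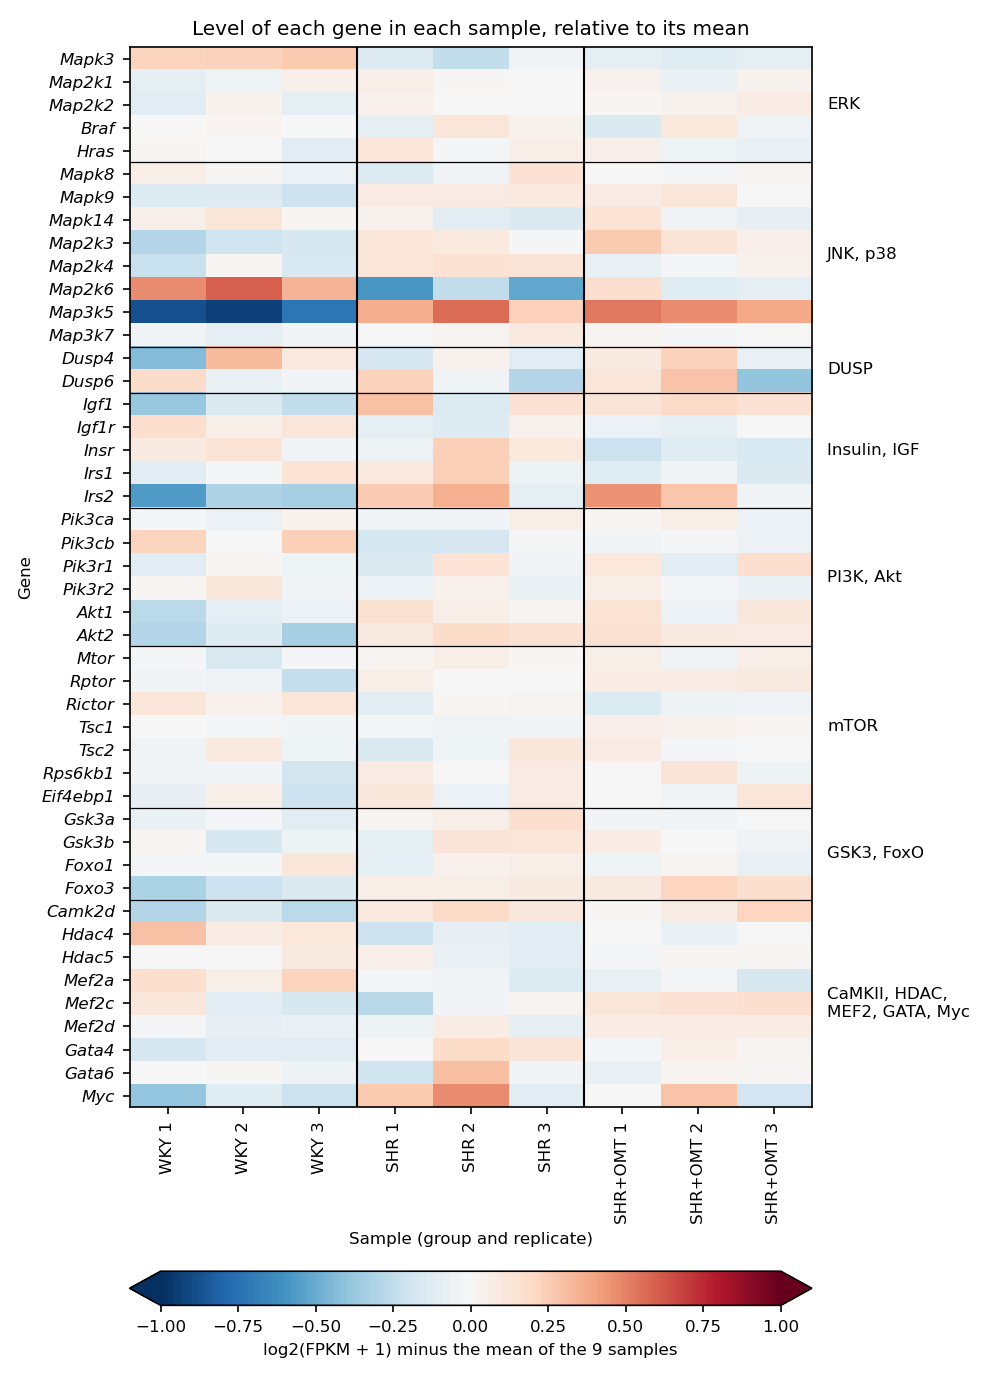
Level of each of the 46 genes (rows, grouped by role) in each of the 9 samples (columns), as log2(FPKM + 1) minus the gene's mean over the samples; red is above and blue below that mean, and the color scale ends at −1 and 1. Map3k5 and Map2k6 show the strongest contrast between the 3 WKY columns and the 6 SHR columns, in opposite directions.

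Treated SHR differed from WKY in 11 of the 45 members, 8 higher and 3 lower, where 24.9% of all tested genes were called, 10.2% higher and 14.6% lower. All 11 were among the 16 called in untreated SHR against WKY; both comparisons use the same 3 WKY libraries. The differences for treated SHR were 1.31 for Map3k5 (adjusted p = 3.73e-05), 0.64 for Irs2 (0.0146), 0.41 for Igf1 (0.0197), 0.38 for Foxo3 (0.0063), 0.37 for Map2k3 (0.00455), 0.36 for Akt2 (0.00262), 0.33 for Camk2d (0.00615) and 0.23 for Mapk9 (0.0105). Those lower were Map2k6 at −0.49 (adjusted p = 0.0147), Mapk3 at −0.34 (0.0023) and Mef2a at −0.23 (0.0224). The 5 called only in untreated SHR were Akt1, Map2k4, Hdac4, Gata4 and Pik3cb, which had adjusted p-values of 0.0695, 0.306, 0.193, 0.0724 and 0.151 here; whether treated and untreated SHR differ in them is the comparison above, in which none passed. Without WKY replicate 1, Igf1, Irs2 and Mef2a lost their calls in treated SHR too. In 22 members treated SHR and WKY did not overlap, against 42.7% of all tested genes: treated SHR was above in 14 (17% of all genes) and below in 8 (25.7%). At an unadjusted p under 0.05 there were 17 members, against 38.9% of all genes.

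Other genes of the same pathways were counted from lists drawn up by gene function. The shares of all tested genes to set beside each list are 10.8% higher and 23.1% lower, and 17% and 13.7% after median-of-ratios scaling. They are 15.1% and 14.6% after quantile normalization, and 7.8% and 15.3% without WKY replicate 1. The median difference of all tested genes was −0.08. Of 31 tested other MAPK cascade genes, 3 (9.68%) were higher and 13 (41.9%) lower in SHR than in WKY, with a median difference of −0.19. Median-of-ratios scaling gave 8 higher and 8 lower, 25.8% each. Mapkapk2, a kinase that p38 activates, rose from 132 ± 7.59 to 184 ± 2.44 FPKM (0.48, adjusted p = 0.000169), and Mapk12 (p38 gamma) fell from 39.5 ± 2.11 to 27.1 ± 0.952 (−0.53, 0.000184). The upstream kinases Map3k11 and Map3k12 were lower, with differences of −0.49 (0.00022) and −0.66 (0.000302). Of 31 other PI3K, Akt and mTOR genes 6 were higher and 6 lower, 19.4% each, with a median difference of 0.02. Median-of-ratios scaling gave 11 higher (35.5%) and 1 lower (3.23%). Rragd, a GTPase that brings mTOR complex 1 to the lysosome, fell from 22.2 ± 0.501 to 10 ± 0.821 FPKM (−1.08, adjusted p = 1.24e-05), and Sesn3, a sestrin that restrains complex 1, rose from 6.59 ± 0.218 to 12 ± 1.12 (0.78, 0.000194). The translation factor gene Eif4g1 and the complex 2 subunit gene Mapkap1 rose by 0.46 and 0.36.

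Of 22 feedback regulators and early targets of the MAP kinases, not of ERK alone, 1 (4.55%) rose and 6 (27.3%) fell in SHR. The latter share was close to the 23.1% of all genes, and the median difference was −0.30. With median-of-ratios scaling 1 rose and 4 (18.2%) fell, where 13.7% of all genes fell. Dusp8, a phosphatase that acts mainly on JNK and p38, rose from 4.7 ± 0.392 to 8.35 ± 1.31 FPKM (0.71, adjusted p = 0.00166), and the ERK pathway inhibitors Spred1 and Spry2 and the Ets factor Etv4 fell, with differences of −0.48, −0.39 and −0.48. Of 21 FoxO target genes, 9 (42.9%) rose and 1 (4.76%) fell, against 10.8% and 23.1% of all genes, with a median difference of 0.17. With median-of-ratios scaling 9 rose (42.9%, against 17%) and 0 fell (against 13.7%). Quantile normalization gave 8 higher (38.1%, against 15.1%) and 1 lower (4.76%, against 14.6%). Without WKY replicate 1 there were 6 higher (28.6%, against 7.8%) and 1 lower (4.76%, against 15.3%). The list shares Irs2, Insr and Eif4ebp1 with the 46 members and Sesn1 and Sesn3 with the list of other PI3K, Akt and mTOR genes. Besides Sesn3, the smallest p-values were those of Cdkn1a, a cell cycle inhibitor also driven by p53 (0.85), the mitochondrial superoxide dismutase gene Sod2 (0.25) and the catalase gene Cat (0.23), and the gene that fell was Cdkn1b. Cdkn1a was also the only gene of these lists called in treated against untreated SHR, at 24.5 ± 2.03 against 53.7 ± 9.98 FPKM (−1.09, adjusted p = 0.0162).

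Of 26 growth factor, receptor and IGF binding protein genes, 2 (7.69%) rose and 8 (30.8%) fell in SHR against WKY, where 10.8% and 23.1% of all genes did, with a median difference of −0.21. With median-of-ratios scaling 3 (11.5%) rose and 5 (19.2%) fell, against 17% and 13.7%. Grb14, an adaptor that inhibits the insulin receptor, rose from 64.3 ± 0.731 to 90.9 ± 1.49 FPKM (0.49, adjusted p = 0.000103), and Fgf1, a fibroblast growth factor, from 53.6 ± 3.79 to 81.3 ± 3.67 (0.59, 0.000173). The related adaptor Grb10 and the IGF binding protein gene Igfbp5 fell, with differences of −0.47 and −0.62. Of 19 cardiac growth transcription factors and cofactors 4 (21.1%) rose and 5 (26.3%) fell, the latter near the 23.1% of all genes. With either other scaling 7 (36.8%) rose and 4 (21.1%) fell, where the all-gene shares were 17% and 13.7% after median-of-ratios scaling, or 15.1% and 14.6% after quantile normalization. The class IIa deacetylase genes Hdac7 and Hdac9 fell, with differences of −0.52 and −0.33, and Nkx2-5, a cardiac homeobox gene, rose by 0.39. Mycn, a relative of Myc, fell from 6.18 ± 1.61 to 2.22 ± 1.12 FPKM (−1.19, adjusted p = 0.00523).

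Promoter windows of the same kind as those printed were at hand for 35 of the 46 members. Their median G and C content was 66% with 27 CpG dinucleotides, against 55% and 11 in 21842 protein-coding promoters of the RefSeq table. The GC box (GGGCGG) was present in 65.7% of the members' windows and in 41.8% of protein-coding windows, the TATA box (TATAAA) in 2.86% and 13%, and the CCAAT box (CCAAT) in 37.1% and 38%. The FoxO site (TGTTTAC) was found in 8.57% and 3.37%, the E-box (CACGTG) in 8.57% and 7.01%, the GATA site (AGATAA) in 5.71% and 10.2%, the AP-1 site (TGANTCA) in 2.86% and 6.53%, the cyclic AMP element (TGACGTCA) in 2.86% and 2.1%, and the Ets site (CCGGAAGT) in 2.86% and 4.78%. The 10-letter MEF2 site was found in 5.71% and 2.88%. Both strands were read, and a match is a run of letters and not a measured binding site. Among the 10 members called in SHR against WKY that had a window, 5 held the GC box and 3 the CCAAT box. Akt2 held the TATA box, Map2k4 the AP-1 site and Mef2a the MEF2 site, and 0 of the 10 held the FoxO, E-box, GATA, cyclic AMP or Ets letters.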

How the data were processed

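RNA of 9 samples of rat left ventricle was extracted with Trizol and sequenced on BGISEQ-500 from KAPA RNA HyperPrep libraries, per the labels' protocols. Upstream tools, per the submitters' processing notes, were RSEM 1.3.1, Bowtie2 and DESeq2 1.4.5, with Rnor_6.0 as the build; their order and settings are not stated, and no source used here says if strand was used in counting. The table deposited by the authors holds, per the file headers, an FPKM value for each gene and sample. It also holds the authors' own log2 ratios and q-values, used only where named as theirs. Of its 22864 rows 3570 had no values.

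Read counts were not used and depth is unknown: of 668 ratios between low values of a gene, 31% were whole to within 0.1 (20% would be by even spacing), so reads were not recovered, no counting interval can be given, and precision rests on replicate spread. No 2 libraries held identical values, and the labels name no batch.

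The 12451 genes that averaged 1 FPKM or more were fitted as log2(FPKM + 1) over the 3 groups with limma 3.58.1 in R 4.3.3, with a mean-variance trend, two-sided, Benjamini-Hochberg adjustment over all of them and a threshold of 0.05. Intervals are 95% and not adjusted. The members and lists were chosen with earlier results of these data known. Sample values are given for every called member and, whatever their result, for Mapk3, Akt1, Mtor, Gata4, Myc and Igf1, and for wider lists up to 4 genes with the smallest p are named; Cdkn1b, Insr, Mef2c, Mef2d, Gsk3a and pair ratios were singled out after their values were seen. RefSeq tables of GRCr8 gave promoters; Braf, Hras, Igf1r, Akt2, Mtor, Tsc2, Rps6kb1, Gsk3a and Gsk3b overlap another protein-coding gene there, and several members, Mapk9, Map3k5 and Gata4 among them, a noncoding one, so reads may be shared. 2 genes of the wider lists were not analysed here.

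On simulated data, with 200 of 12451 genes changed, the fit recovered 70.1%, 91% and 98.5% of changes of 1.5, 2 and 4-fold for SHR against WKY. It recovered 85.1%, 88.1% and 100% for treated against untreated SHR, and 74.6%, 94% and 100% for treated SHR against WKY. False calls numbered 11, 14 and 12. The simulated folds were of FPKM + 1, so for low genes they stand for larger folds of FPKM. Recovery of the same folds of FPKM in low genes was not simulated. The simulated noise was normal and independent between genes, and the number of changed genes was not matched to the calls in the data. No change under 1.5-fold was simulated, so the recovery of smaller differences is unknown. Alternatives were a pseudocount of 0.1, no filter, a filter at 5 FPKM, quantile normalization, median-of-ratios scaling, fits of only the groups compared, fits without the variance trend, a block for replicate number, and leaving out each sample. Figures were drawn with matplotlib 3.10.9.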

Additional observations from a re-analysis of the deposited data

How the results depend on the processing

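Of 757 values of single members recomputed for SHR against WKY, 688 kept their side of the threshold, 50 lost the call and 19 gained it; for treated SHR against WKY the numbers were 740, 8 and 9, and for treated against untreated SHR all 757 kept theirs. Leaving out each sample in turn gave 8 to 16 called members for SHR against WKY, fewest without WKY replicate 1, where calls over all genes fell too, from 4215 to 2882, and where Map2k4, Igf1, Irs2, Pik3cb, Akt1, Foxo3, Hdac4 and Mef2a lost their calls; the cause was not tested. Among all genes it gave 6 to 33 calls for treated against untreated SHR, fewest without treated replicate 1 (6) and SHR replicate 2 (7), and 1893 to 3043 for treated SHR against WKY, fewest without WKY replicate 1 (1893) and treated replicate 1 (2024). For treated against untreated SHR the count over all genes was 30, and 12 with no filter, 17 with no variance trend, 19 with only the groups compared and 14 with the replicate block; the members' count stayed at 0 in all of these. Same-numbered samples correlated at −0.109 to 0.028 in their deviations from the group means, and differently numbered ones at −0.076 to 0.072. No pairing by number was seen, but with 3 samples per group a weak one could be missed. With the replicate block 13 members were called for SHR against WKY, 10 higher and 3 lower (all genes 1155 and 2395), without Igf1, Pik3cb, Akt1 and Hdac4 and with Myc; for treated SHR against WKY the block gave 11. In the counts over all genes for SHR against WKY, 1343 were higher and 2872 lower, and 2115 and 1702 with median-of-ratios scaling.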
